A study of Homo sapiens with 6 samples.

Results

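Retinal ribbon synapse and bipolar cell genes were examined for 2 histone marks in D283, an established Group 3 medulloblastoma cell line. The set held 7 of 19974 protein-coding genes: CPLX3, CPLX4, TRPM1, GRM6, CACNA1F, CACNA2D4 and CABP4. Peaks and differential regions were assigned to a gene when they overlapped its RefSeq span (GRCh38.p14) extended by 2 kb on each side. The genes were chosen by their role in the retina and on measured H3K4me3 differences between these same libraries, so their values are given as a description with no test.

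The cells were grown as tumorspheres, floating clusters in neural precursor medium with growth factors, and received siRNA against OTX2 at 30 nM (OTX2low) or a non-silencing scramble siRNA (OTX2high). ChIP-seq was made for H3K4me3, a mark of active and poised promoters, and for H3K27me3, the mark of Polycomb repression. There was 1 library per mark and condition, all from this 1 cell line, so replicate error cannot be given for any difference. The remaining 2 libraries were IgG controls, whose titles and silencing labels name opposite conditions. After filtering, the H3K4me3 library had 20914582 tags in OTX2low and 33137731 in OTX2high. The H3K27me3 library labelled OTX2low had 33885628 tags and the one labelled OTX2high 40271458, but the headers of their peak files name the opposite conditions. The list labelled OTX2low was called against IgG of 85840108 tags, the number used for H3K4me3 in OTX2high. The list labelled OTX2high was called against IgG of 55079542 tags, the number used for H3K4me3 in OTX2low. H3K27me3 values are given by label, and which naming is right was not tested. As a check of the silencing label, the H3K4me3 region of OTX2 itself with the most reads held 1767.5 normalized reads in OTX2low and 3119.1 in OTX2high (log2 ratio -0.82). That is -0.21 relative to the table median of -0.61, a small difference beside the general shift, and it says nothing of the RNA of OTX2. All 6 markers of Group 3 tumors (OTX2, MYC, NPR3, GABRA5, IMPG2 and NRL) had an H3K4me3 peak in each list, where 73.7% (OTX2low) and 75.0% (OTX2high) of all protein-coding genes had one. At such shares this count cannot check the cell type. Of 19 bipolar transcription factors and markers, 16 had a peak in OTX2low and 17 in OTX2high. Of 14 markers of glial, immune, endothelial, mesenchymal, muscle and epithelial cells, 3 had a peak in OTX2low and 4 in OTX2high.

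Photoreceptors and bipolar cells release glutamate without pause from ribbon synapses, at which a plate-like ribbon holds vesicles beside calcium channels. Complexins of the retinal type, CPLX3 and CPLX4, bind the SNARE fusion machinery there. CACNA1F encodes the pore of the L-type calcium channel of photoreceptor terminals, CACNA2D4 its auxiliary subunit and CABP4 a calcium-binding protein that tunes it. On the receiving side, ON bipolar cells sense glutamate through the receptor encoded by GRM6, which closes the cation channel TRPM1. OTX2 is a homeodomain factor needed for photoreceptor and bipolar cell development, and it is highly expressed in Group 3 medulloblastoma. Histone marks do not measure RNA, and expression of these genes was not analysed here.

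H3K4me3 at the gene start was lower in OTX2low at 5 of the 7 genes, and GRM6 and CABP4 had no H3K4me3 peak or differential region in either condition. Across all protein-coding genes, 47.7% had a region lower in OTX2low anywhere in the extended span and 12.0% a region higher in OTX2low. A region lower in OTX2low lay over the start itself at 4 of the 6 genes with a start in the RefSeq promoter table and at 18.6% of all 15813 genes there. The fall was to 11.1% of the OTX2high level at CPLX4, the smallest share in the set, and to 53.2% at CPLX3, the largest. For the 5 genes the median log2 ratio (OTX2low over OTX2high throughout, so that a negative value is lower in OTX2low) was -2.37, against -0.53 over the 10726 protein-coding genes with a region. Regions were listed by a test on read numbers, so one with few reads is listed only at a large ratio. The -2.37 is the value of CACNA1F, with 8 reads in OTX2low and 65 in OTX2high. The part of read number in the gap between these medians was not tested. A region with a log2 ratio of -1 or less was found at 4 of the 7 genes and at 17.2% of all protein-coding genes. With a ratio of -2 or less and a peak in the region, it was again 4 of the 7, against 3.94% of all. These shares describe how the set was chosen and support nothing further. In cells measured in bulk, fewer cells with the mark and less of the mark per cell cannot be told apart.

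**Figure D1:**
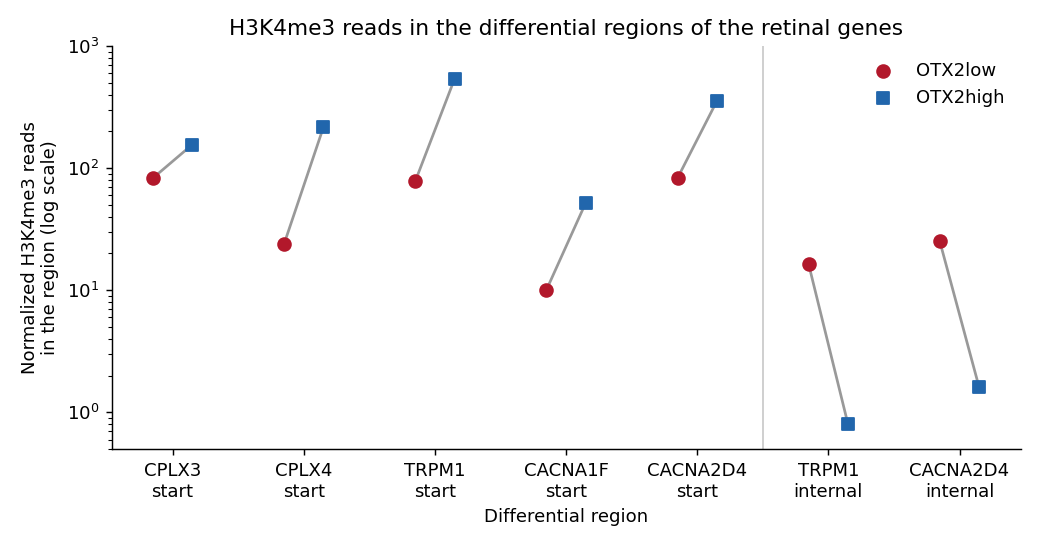
Normalized H3K4me3 reads (log axis) in the 7 differential regions of the gene set, 1 library per condition, with OTX2low as circles and OTX2high as squares. At the 5 gene starts the OTX2low point is the lower one (CPLX4 23.8 and 215.4 reads in OTX2low and OTX2high), and in the 2 internal regions it is the higher one at few reads (TRPM1 16.3 and 0.80).

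Among the complexins, CPLX4 had the lowest ratio. Its region on chromosome 18, at 59315501 to 59319700, covered the gene start and held 23.8 normalized reads in OTX2low and 215.4 in OTX2high. This is a 9.04-fold lower value in OTX2low, or -3.18 on the log2 scale, with a 95% interval for counting error of -3.93 to -2.51. The authors' ratio of ChIP over IgG reads in this region was 0.65 in OTX2low and 4.61 in OTX2high, so the OTX2low ratio was below 1. CPLX3 had 82.7 normalized reads in OTX2low and 155.6 in OTX2high in its region on chromosome 15, at 74826501 to 74828100. Its log2 ratio was -0.91 (-1.34 to -0.50), or 1.88-fold lower in OTX2low. Relative to the median of -0.61 over all regions of the table, CPLX3 stood at -0.30 (-0.73 to 0.11), an interval that includes 0. ChIP over IgG at CPLX3 was 10.3 in OTX2low and 15.3 in OTX2high. The CPLX3 region also came within 2 kb of LMAN1L, the neighboring gene, which lies 873 bp from CPLX3.

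TRPM1 was the bipolar cell gene with H3K4me3. Its region at the first start, on chromosome 15 at 31158501 to 31162700, held 77.7 normalized reads in OTX2low and 536.1 in OTX2high. The log2 ratio was -2.79 (-3.19 to -2.41), a 6.90-fold lower value in OTX2low, and ChIP over IgG was 2.93 in OTX2low against 23.6 in OTX2high. The second RefSeq start of TRPM1, at 31101725, had its nearest H3K4me3 peak 58.8 kb away in OTX2low and 57.4 kb away in OTX2high. MIR211, a microRNA gene inside TRPM1, had its nearest peak 72.5 kb away in OTX2low and 72.3 kb away in OTX2high. A second TRPM1 region, 12.1 to 13.1 kb inside the gene, went the other way with 16.3 normalized reads in OTX2low and 0.80 in OTX2high. It overlapped no peak, and the OTX2high value is that of 1 read.

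Both calcium channel subunits with a region were lower in OTX2low. CACNA2D4 had 82.7 normalized reads in OTX2low and 353.4 in OTX2high in a region on chromosome 12, at 1915801 to 1919600, over the higher-coordinate end of the gene, from which it is transcribed. This was 4.27-fold lower in OTX2low (log2 ratio -2.09, interval -2.49 to -1.72), with ChIP over IgG of 2.77 in OTX2low and 16.0 in OTX2high. CACNA1F had 10.0 normalized reads in OTX2low and 51.9 in OTX2high in a region on chromosome X, at 49232101 to 49234000. Its log2 ratio of -2.37 (-3.64 to -1.31) has the widest interval of the 5 gene starts, since only 8 reads in OTX2low and 65 in OTX2high stood behind it. ChIP over IgG at CACNA1F was 1.76 in OTX2low and 5.11 in OTX2high. A second region within CACNA2D4, at 1819501 to 1821000, was higher in OTX2low, with 25.1 normalized reads in OTX2low and 1.60 in OTX2high. It overlapped no peak and covered the start of LRTM2, a gene that lies inside CACNA2D4.

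Ordered by log2 ratio, CPLX4, TRPM1, CACNA1F and CACNA2D4 followed each other with overlapping counting intervals. The interval of CPLX3 did not overlap that of CACNA2D4, its neighbor in this order. Per kb of region, the OTX2low reads were highest at CPLX3 (51.7 normalized reads per kb), then CACNA2D4 (21.8), TRPM1 (18.5), CPLX4 (5.67) and CACNA1F (5.28). In OTX2high TRPM1 was highest (127.6 normalized reads per kb), then CPLX3 (97.2), CACNA2D4 (93.0), CPLX4 (51.3) and CACNA1F (27.3).

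**Figure D2:**
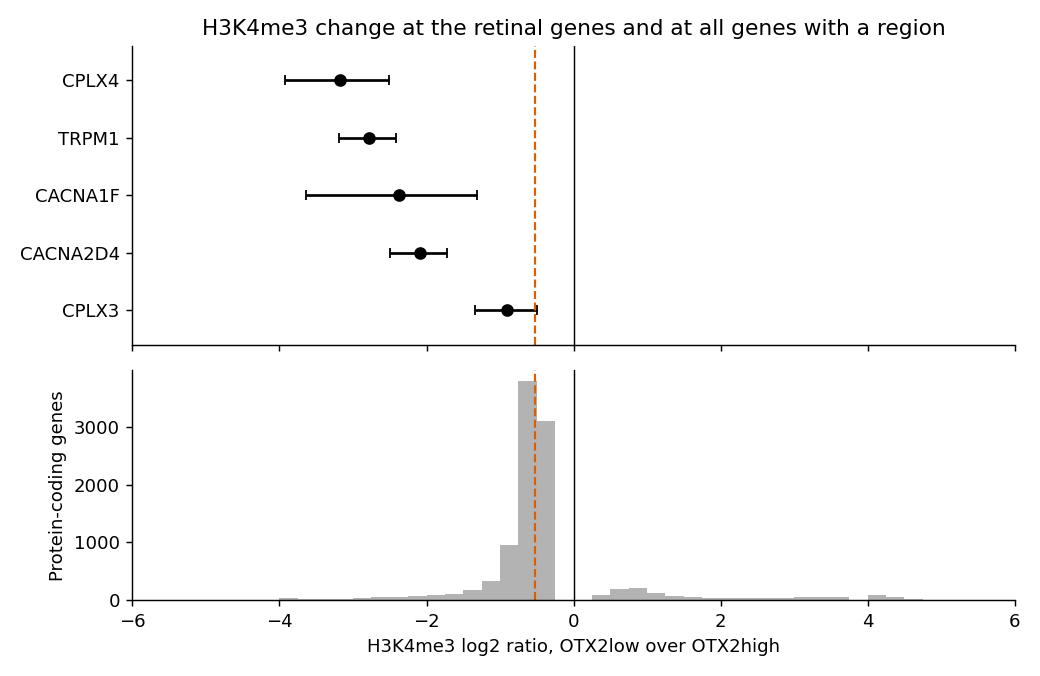
Upper panel, H3K4me3 log2 ratios (OTX2low over OTX2high) of the 5 genes with a region at the start, with 95% counting intervals. Lower panel, the same ratio for the region with the most reads of 10201 protein-coding genes with reads in both libraries, in bins of 0.25. The dashed line is their median of -0.53, and the interval of CPLX3 (-1.34 to -0.50) is the one that reaches it.

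The start regions of 4 genes could be compared with those of other genes whose start is in the RefSeq promoter table. A differential region covered the start of 3265 of 15813 such genes, and 32 of these had a log2 ratio of -2 or less. CPLX4 was at rank 12 from the lowest ratio, TRPM1 at 13 and CACNA1F at 18, while CPLX3 stood at 262. The genes were chosen on differences in these same libraries, so the ranks describe that choice and support nothing further. The rank of CACNA1F rests on 8 reads in OTX2low. CACNA2D4 has no entry in that table.

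Of the 250 bases before the starts of these 4 genes, each held TAATCC, the core motif of the OTX and CRX class of homeodomain factors, on one strand or the other. The sequences are RefSeq GRCh38.p14 and are shown 5′ to 3′ along the gene because they carry this shared feature, with the motif or its reverse complement GGATTA in capitals. They are chr15:74826377-74826626 (plus strand) for CPLX3, chr18:59318650-59318899 (minus strand) for CPLX4, chr15:31161161-31161410 (minus strand) for the first TRPM1 start and chrX:49233341-49233590 (minus strand) for CACNA1F.
CPLX3: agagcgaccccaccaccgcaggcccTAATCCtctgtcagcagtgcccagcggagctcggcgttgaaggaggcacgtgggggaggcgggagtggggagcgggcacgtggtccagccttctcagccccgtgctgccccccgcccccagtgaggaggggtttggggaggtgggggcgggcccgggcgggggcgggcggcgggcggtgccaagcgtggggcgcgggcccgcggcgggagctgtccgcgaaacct
CPLX4: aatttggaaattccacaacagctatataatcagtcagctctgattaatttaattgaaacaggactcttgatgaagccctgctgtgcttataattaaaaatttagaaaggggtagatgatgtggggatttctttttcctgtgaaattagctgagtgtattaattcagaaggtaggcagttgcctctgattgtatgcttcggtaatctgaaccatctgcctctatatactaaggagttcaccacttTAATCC
TRPM1: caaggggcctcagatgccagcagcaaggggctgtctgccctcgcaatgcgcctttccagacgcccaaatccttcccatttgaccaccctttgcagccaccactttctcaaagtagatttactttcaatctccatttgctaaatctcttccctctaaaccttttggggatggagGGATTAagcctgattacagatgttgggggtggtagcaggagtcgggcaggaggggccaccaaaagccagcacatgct
CACNA1F: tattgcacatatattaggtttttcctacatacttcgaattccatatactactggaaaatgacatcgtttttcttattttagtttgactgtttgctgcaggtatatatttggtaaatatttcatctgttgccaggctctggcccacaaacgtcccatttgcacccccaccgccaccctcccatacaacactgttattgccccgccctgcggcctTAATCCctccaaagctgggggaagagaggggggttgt

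Counted from the start, with -1 the base before it, the motif lay at -225 to -220 in CPLX3, at -6 to -1 in CPLX4, at -77 to -72 in TRPM1 (as the reverse complement) and at -37 to -32 in CACNA1F. The CPLX3 motif lay outside the differential region of that gene, which began at -0.126 kb, and within its OTX2high peak, which began at -380. The windows of GRM6, CABP4 and the second TRPM1 start held no match. Over the 250 bases before the start, TAATCC occurred in 4.86% of 22156 windows of protein-coding genes. Over windows of 300 bases (250 before the start and 50 after it), both strands searched, TAATCC occurred in 5.46% of 22156 windows of protein-coding genes. It occurred in 5.12% of the 3265 genes with a differential region over the start, and in 15 (46.9%) of the 32 with a log2 ratio of -2 or less. Without the 3 genes of the set among those 32, it was 12 of 29 (41.4%). GC content moved with this, at a median of 49.8% in the 32 windows against 63.0% in the 3265, and its part in the motif share was not tested. For comparison, TAATTA, a palindromic core of many other homeodomain factors, occurred in 2 (6.25%) of the 32 windows and 2.57% of the 3265. Without the 3 genes of the set it was 1 of 29 (3.45%). Among the 6 genes of the set with a window, CPLX4 held it, at -161 to -156, and the other 5 did not. A match of 6 letters is a description of the sequence and not a binding site.

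The peak lists were then read by position. Peaks are the authors' calls, each with the peak caller's own fold enrichment over local background. A peak overlapped 5 of the 7 genes in the OTX2low list and 5 in the OTX2high list, against 73.7% and 75.0% of all protein-coding genes. By this count 0 of the 7 had a peak in OTX2high while lacking one in OTX2low, against 2.02% of all. Within 1 kb of the start, a peak was present at 3 genes in OTX2low and at 5 in OTX2high. Over the 15813 genes with a start in the RefSeq promoter table, which holds 6 of the 7, the shares were 70.9% in OTX2low and 71.3% in OTX2high, against 2 and 4 of those 6. The start peaks of CPLX4 (2383 bp, fold enrichment 10.5) and CACNA1F (520 bp, 6.63) were in the OTX2high list and had no counterpart in the OTX2low list. Start peaks present in both lists were shorter in OTX2low. At TRPM1 the peak spanned 623 bp in OTX2low and 2913 bp in OTX2high, with fold enrichments of 6.35 and 28.0. The CACNA2D4 peak spanned 827 bp in OTX2low and 2603 bp in OTX2high, with fold enrichments of 6.25 and 27.7. For CPLX3 the lengths were 819 bp in OTX2low and 1641 bp in OTX2high, and the fold enrichments 8.33 and 16.6. The OTX2low library was the shallower one, and the part of depth in these calls and lengths was not tested.

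Peaks away from the start were present in both lists. CPLX4 had a second peak about 10 kb inside the gene, at 9.64 to 10.3 kb from the start in OTX2low (fold enrichment 9.99) and at 9.52 to 10.5 kb in OTX2high (14.5). No differential region covered it. Another weak CPLX4 peak, 19.6 to 19.9 kb inside the gene, was in the OTX2high list and not in the OTX2low list (377 bp). Upstream of CACNA1F a peak at 1.83 to 2.39 kb from its start in OTX2low (fold enrichment 14.6) and at 1.77 to 2.46 kb in OTX2high covered the start of the neighboring gene CCDC22. It lay outside the CACNA1F differential region, and without it CACNA1F would have no OTX2low peak. These were the assigned peaks nearest to the 2 kb limit. Of GRM6 and CABP4, which had no assigned peak, CABP4 had the nearer one, 6.27 kb (OTX2low) and 6.37 kb (OTX2high) away. For the genes with an assigned peak, the distance to the nearest unassigned peak was not measured.

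**Figure D3:**
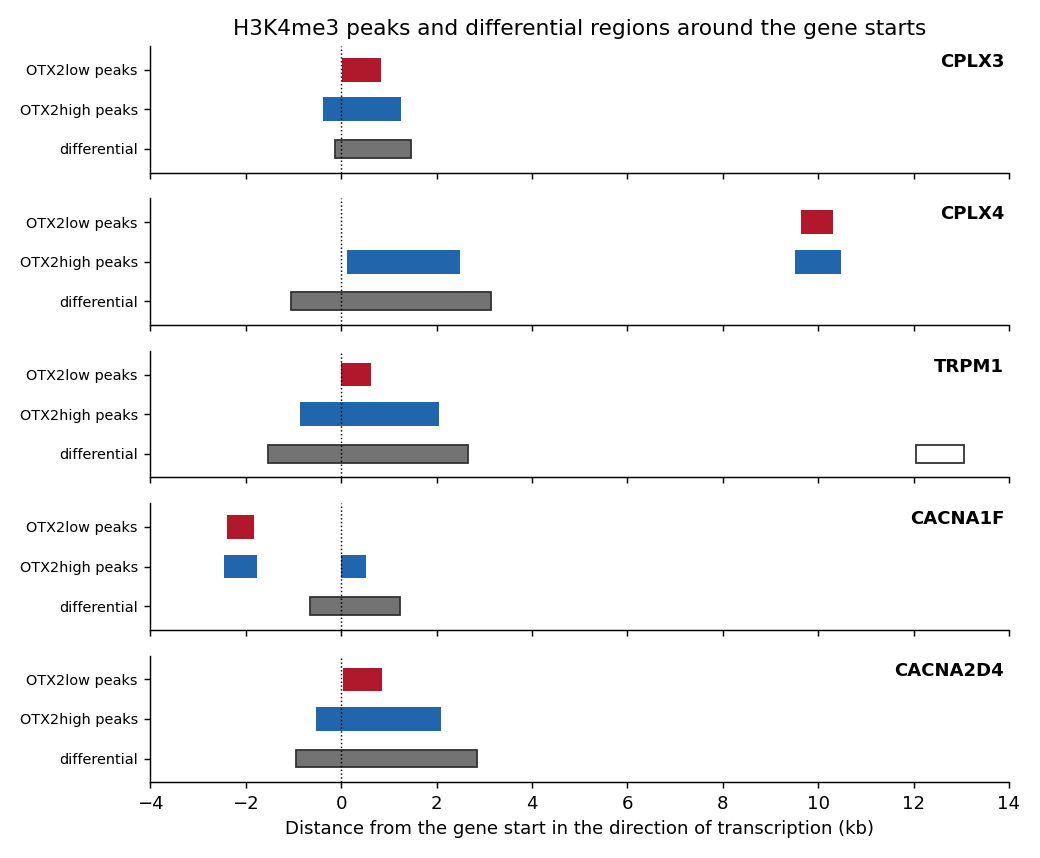
H3K4me3 peaks in OTX2low (upper bars) and OTX2high (middle bars) and differential regions (lower bars, filled where lower in OTX2low, open where higher), by distance from the gene start in kb along transcription. Start bars are shorter in OTX2low at CPLX3, TRPM1 and CACNA2D4 and missing at CPLX4 and CACNA1F. The CPLX4 peak at 19.6 kb and the CACNA2D4 region at 97.7 kb lie outside the axis.

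GRM6 and CABP4 lay in stretches without H3K4me3. The nearest peak to GRM6 was 27.6 kb away in OTX2low and 27.5 kb away in OTX2high, over the start of ZNF879. The nearest peak to CABP4 was 6.27 kb away in OTX2low and 6.37 kb away in OTX2high, over the start of TMEM134, a gene that overlaps CABP4. ChIP reads of these 2 genes outside peaks and regions are not in the tables, so a low level of the mark was not detectable here.

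No gene of the set had a called H3K27me3 peak or region. Peaks of this mark overlapped 0 of the 7 genes in each list, against 17.7% of all protein-coding genes by the OTX2low label and 25.8% by the OTX2high label. None had a region in the authors' deposited table for H3K27me3, where by the header's condition names 7.35% of genes had a region higher in OTX2low and 3.61% a region lower in OTX2low. The closest case was CPLX4, whose nearest H3K27me3 peak was 20.9 kb away in the list labelled OTX2low and 5.71 kb away in the list labelled OTX2high. Both lay on the side of RAX, a retinal homeobox gene 21.9 kb from CPLX4 that had H3K27me3 peaks in both lists. For the other 6 genes the nearest peak was 67.0 to 387.4 kb away in the list labelled OTX2low and at least 39.6 kb away in the list labelled OTX2high. Lower H3K4me3 at these starts was recorded without a called H3K27me3 difference.

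Flanking genes were read in the same way. The 18 distinct genes that overlap or flank the 7 genes were taken by position, after the values of the set were seen. Of these, 16 had an H3K4me3 peak in OTX2low and 15 in OTX2high. For 10 of the 18 the region with the most reads was not shared with a gene of the set. Their log2 ratios ran between -0.77 (MTMR10, beside TRPM1) and 0.83 (SYP, beside CACNA1F), with 8 lower and 2 higher in OTX2low and none at -1 or less. Those of MTMR10 and of ULK3 (-0.64, beside CPLX3) fell within the interval of CPLX3. Left out of these 10 were LMAN1L, CCDC22 (-2.37) and LRTM2 (3.97), whose region is that of a gene of the set, and 5 genes with no region. SYP encodes synaptophysin, a vesicle protein of most synapses, and had 175.5 normalized reads in OTX2low and 98.9 in OTX2high. RAX and LMAN1, on either side of CPLX4, were at -0.56 and -0.39, and DCP1B, beyond the start of CACNA2D4, at -0.61.

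Other genes of the same synapses were taken from 4 lists of 55 genes. Across all protein-coding genes, 8331 of 19974 had H3K4me3 regions lower in OTX2low only, 1198 higher only and 1197 of both kinds. Among 20 active zone and vesicle release genes, 7 had regions lower in OTX2low only, 8 higher only and 5 both, with a median log2 ratio of 0.67 over 20 genes. Among 11 genes of the ON bipolar cascade, 5 were lower only and 1 higher only, and 5 had no region, with a median of -0.84 over 6. Among 19 bipolar transcription factors and markers, 7 were lower only, none higher only, 1 was both and 11 had no region, with a median of -0.86 over 8. Among 5 synaptic adhesion genes, 2 were lower only, 1 higher only, 1 both and 1 without a region, and the median was 0.25 over 4. For the active zone and adhesion lists the sign of the median changed when regions outside peaks were left out. With regions that overlap a peak alone, a choice made after seeing the data, the median was -0.64 over 15 active zone genes and -0.43 over 3 adhesion genes, both below 0. It was -0.76 over 5 genes of the ON cascade, -0.86 over 8 bipolar factors and markers, and -0.53 over 9658 protein-coding genes. In the adhesion list the positive median rested on ELFN2, at 3.68 outside peaks with 61.4 reads in OTX2low and 4.79 in OTX2high. For 3 genes of these lists listed at 0 in one library, the ratio entered the median at a bound of 3 reads.

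In the complexin family the ratios differed in sign by type. CPLX1 and CPLX2, the complexins of conventional synapses in brain, were higher in OTX2low. CPLX2 had 856.2 normalized reads in OTX2low and 303.1 in OTX2high (log2 ratio 1.50, interval 1.31 to 1.68), and CPLX1 had 298.4 in OTX2low and 185.9 in OTX2high (0.68, 0.42 to 0.95). The retinal complexins CPLX3 and CPLX4 were at -0.91 and -3.18. Relative to the table median, CPLX3 stood at -0.30 (-0.73 to 0.11), an interval that includes 0. CPLX1 and CPLX2 also had H3K27me3 peaks in both lists, where CPLX3 and CPLX4 had none. The CPLX2 region lay 74.0 kb from the nearest RefSeq start of the gene, while those of CPLX3 and CPLX4 covered a start. CPLX1 has no entry in the RefSeq promoter table, so the place of its region relative to the gene start was not measured. The ratios of the 2 types are therefore not all from like positions.

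In the active zone list, ERC2, a scaffold of the active zone, was at -2.40 (126.6 normalized reads in OTX2low, 669.3 in OTX2high) in a region 783.6 kb from its nearest RefSeq start. STX3, the syntaxin of ribbon synapses, was at -1.93 with 11.3 reads in OTX2low and 43.1 in OTX2high, and UNC119, a photoreceptor trafficking protein, at -1.05 with 249.5 and 516.9. RIMBP2, which links release sites to calcium channels, was at 2.24 with 37.6 reads in OTX2low and 8.0 in OTX2high. CACNB2, a calcium channel beta subunit and the gene of the list with the most reads, was at -0.76. The regions of STX3, RIMBP2 and CACNB2 lay 3.5, 27.9 and 29.6 kb from the nearest RefSeq start of the gene, while that of UNC119 covered a start.

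In the bipolar lists, CABP2, a relative of CABP4, was at -1.96 (51.4 reads in OTX2low, 200.2 in OTX2high) over its start, and PRKCA, the kinase used as a rod bipolar marker, at -1.45 in a weak internal region. GRIK1, a kainate receptor of OFF bipolar cells, had the most reads of its list and was at -0.89. GNB3, the G protein beta subunit of the ON cascade, was at -0.98. GRIK1 and GNB3 have no entry in the RefSeq promoter table, so the place of these regions relative to the gene start was not measured. Whether the regions belong to neighboring genes was not tested. GNAO1, the G protein alpha subunit downstream of GRM6, was higher in OTX2low at 1.50 on the log2 scale, with 76.5 reads in OTX2low and 27.1 in OTX2high. EGFLAM, the matrix protein pikachurin of the ribbon synapse, had the most reads among adhesion genes and was at -0.67. NYX, LRIT3 and GPR179, which hold the TRPM1 and GRM6 complex together at the dendrite, had no H3K4me3 peak or region in either condition.

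By distance in the plane of log2 reads in OTX2low and OTX2high, over 35 genes of these lists, STX3 was nearest to CACNA1F (0.32) and ERC2 to TRPM1 (0.77). CABP2 was nearest to both CPLX3 (0.78) and CPLX4 (1.11), and VSX1, another bipolar homeodomain factor, to CACNA2D4 (0.99). This likeness rests on 2 values per gene and takes no account of where a region lies in its gene.

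The marker lists were read in the same way. All 6 Group 3 markers had regions lower in OTX2low only, with a median of -0.72 over 6, and IMPG2, a matrix protein of photoreceptors, was at -1.44. Of the 14 markers of other cell types, 4 were lower only, 1 higher only and 9 had no region, with a median of -1.80 over 5 that lies near the -2.37 of the gene set. Of those 5, PECAM1 and COL3A1 were listed at 0 in OTX2low, and MBP, a myelin protein, was at 3.24 in a region outside peaks with 22.6 reads in OTX2low and 2.39 in OTX2high. Among them PTPRC, the leukocyte marker, was at -1.80 with 13.8 reads in OTX2low and 47.9 in OTX2high, and COL1A1, a collagen, at -0.58. The PTPRC region lay 12.5 kb from its nearest RefSeq start. The regions of PECAM1 and COL3A1 also overlapped no peak. With regions that overlap a peak alone, the median was -1.19 over 2 markers of other cell types (PTPRC and COL1A1). For the Group 3 markers it was -0.72 over 6.

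**Figure D4:**
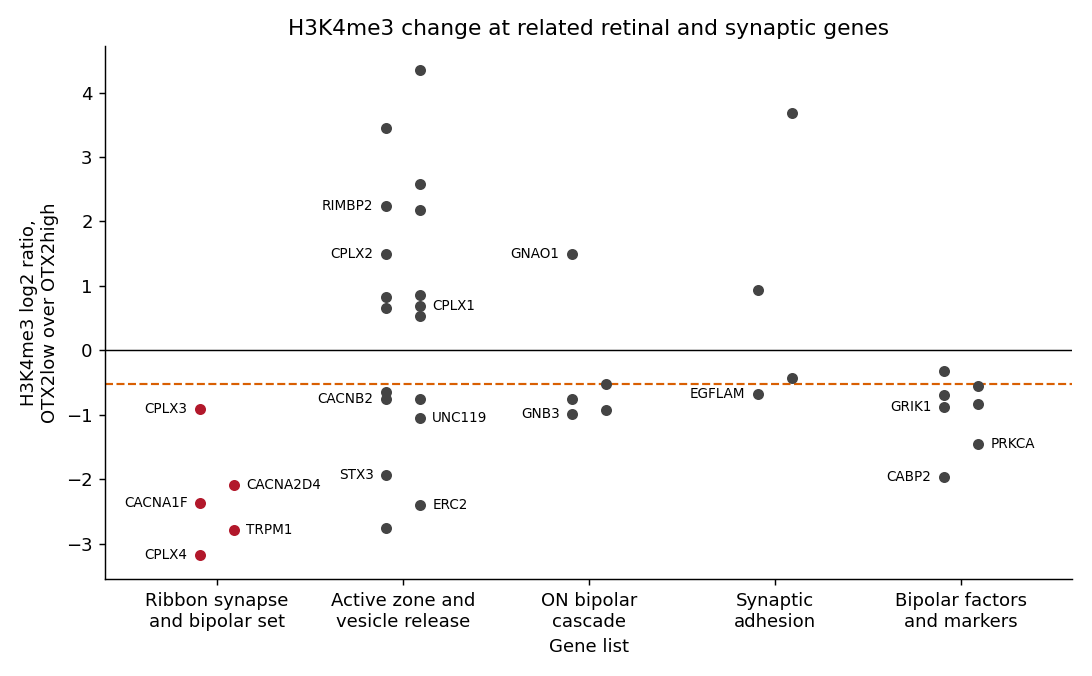
H3K4me3 log2 ratios (OTX2low over OTX2high) in the region with the most reads, for the 5 genes of the set and for reported genes of 4 related lists with reads in both libraries. The dashed line is the median of -0.53 over protein-coding genes. The set lies between -3.18 and -0.91, while the active zone list spreads to both sides, with CPLX2 at 1.50 and ERC2 at -2.40.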

How the data were processed

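The submitters' processing notes name Bowtie2 2.3.3.1, MACS2 2.1.1.20160309 and the build GRCh38. Per the file headers, MACS2 called each peak list from 1 ChIP and 1 IgG library, unpooled, with q-values cut at 0.05, and deposited peaks have a pileup signal, a fold enrichment ratio and a -log10 q-value. The authors' differential tables come from diffReps 1.55.6, a G-test of 1 library against 1 over windows of 1000 bp (H3K4me3) or 10000 bp (H3K27me3), per the file headers. Their deposited values are read signal per region scaled by a constant per library, and a ratio of ChIP over IgG. The deposited log2 column has OTX2high on top, and the log2 ratios here were computed from the scaled reads with OTX2low on top. The headers name hg19 as the chromosome set of the scan, while the notes name GRCh38.

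A read was worth 1.25 (OTX2low) and 0.80 (OTX2high) normalized H3K4me3 reads, and 100% of values came out whole within 0.05 reads in each column. A G-test on them, added after seeing the data and adjusted over the 663990 windows of the header, called 21714 of 21714 regions. These regions had been listed by the authors' own G-test on the same reads, so this outcome was fixed in advance and adds no support. Such a test compares these libraries and not the conditions. Intervals of 95% are exact Clopper-Pearson intervals of the recovered reads. They cover counting error only, since there was 1 library per mark and condition. PCR reads are not independent molecules, so the intervals may be too narrow even for counting error. Each gene was given its region with the most reads. Python 3.11.15, pandas 2.3.3 and SciPy 1.17.1 were used, and the steps were tested on simulated data. Strands and starts come from the RefSeq promoter table, where 6 of the 7 genes matched. CACNA2D4 was placed on its known strand. All 75 genes of the 6 lists matched.

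The set and the lists were chosen with earlier results of these data known. Named from the lists were at most 5 genes each with a log2 ratio of at least 1 in size in a peak, the gene with the most reads, the gene nearest to each member, and genes starting in a member's peak or region. CPLX1, SYP, the other flanking genes, NYX, LRIT3, GPR179 and, for its place beside CACNA1F, CCDC22 were named for position or family after values were seen. For 1 gene of the lists that this rule names, values are not reported here, though it counts in its list. The authors' hotspot tables were not used. The IgG libraries enter through the authors' peak calls and ratios alone.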

Additional observations from a re-analysis of the deposited data

How the results depend on the processing

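Alternatives were the peak threshold, the overlap, the gene span (0 or 5000 bp), filters on regions, recentring on the table median and summing all regions of a gene. The number of genes lower in OTX2low stayed at 5, or 4 with a log2 ratio of at least 1 in size, and the number with a peak at 4 or 5. All H3K27me3 counts stayed at 0. The 2 genes with an internal region higher in OTX2low became 0 when regions had to overlap a peak and 1 when at least 20 normalized reads were required in either library. Recentring moved the log2 ratio to -0.30 at CPLX3, to -1.49 at CACNA2D4 and to -2.18 at TRPM1, past their counting intervals, by construction. No H3K4me3 ratio of the 5 genes changed sign under summing or recentring. The planned H3K27me3 ratios could not be computed, since no gene had a region. No paired analysis was possible because each mark and condition has 1 library, and no library could be left out. Among the 5 start regions, CACNA1F had the fewest reads in OTX2low, at 8.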
